A study of Ciona savignyi with 56 samples.

Results

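The anterior epidermis of the 110-cell embryo is the class of cells that the authors' cell table gives that name, and it was taken here by that label alone. It held 56 of the 317 cells measured at that stage and of the 773 cells of the whole matrix, with 19, 17 and 20 cells in embryos 1, 2 and 3. It was set against 67 posterior epidermis cells, 24 anterior neural cells (the a-line neural class, a8.17/18/19/20/25/26) and all 174 cells of the 14 classes outside the epidermis, from the same 3 embryos. A further comparison used 66 epidermis cells of 3 embryos of the 64-cell stage. Animal cells of 64-cell embryos grown in U0126 (63 cells of 2 embryos) and of untreated 32-cell embryos (36 cells of 2 embryos) are described beside these. U0126 blocks MEK, the kinase downstream of fibroblast growth factor receptors.

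The study measured polyadenylated RNA of single blastomeres of the ascidian Ciona savignyi by a modified Smart-seq2 protocol, with every embryo taken apart and its cells picked one by one. All embryos came from wild-caught adults with no genetic change named in the labels, and only the U0126 embryos were treated. The 110-cell and untreated 64-cell columns hold counts of unique molecular identifiers (UMIs, tags that mark copies of 1 molecule). The 32-cell and U0126 columns hold reads.

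Ascidian ectoderm comes from the animal side of the embryo, where cleavages follow a fixed lineage. The a-line cells at the front give anterior epidermis and the front of the nervous system, and the b-line cells behind them give posterior epidermis and the dorsal part of the nerve cord. Fibroblast growth factor from vegetal neighbours turns some animal cells towards neural fate, and the animal cells that do not take that path make epidermis, the single outer layer that secretes the larval tunic.

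The files do not pair gene identifiers with names and no annotation was used here, so genes are given by identifier and no function or sequence is attached to them. How the authors assigned classes is not given in the sources used here. If the classes rest on the same expression values, a difference between them was partly built in. The p-values below set a difference against a spread between embryos that was estimated over all classes in the fit. Nor do the sources say whether the embryos share parents.

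Embryos 1, 2 and 3 held 2886511, 4128003 and 4303758 UMIs in all, and 20 of the 317 cells were marked low quality by the authors and left out. Summed anterior epidermis held 467749, 612440 and 638838 UMIs. The class made up 19%, 15.5% and 18.7% of the cells of embryos 1, 2 and 3. The median anterior cell held 28492 ± 5485 UMIs, the median posterior cell 28249 ± 6534 and the median cell outside the epidermis 33694 ± 3547 (mean ± SD of 3 embryos). After each cell was thinned to 10000 UMIs, the medians were 3471 ± 64.5 genes in anterior epidermis, 3456 ± 74.2 in posterior epidermis (exact two-sided sign-flip p = 0.5) and 3435 ± 71.4 outside the epidermis (p = 0.25 in the same exact test, the smallest that 3 embryos allow). The count of genes was higher in anterior epidermis than outside the epidermis in 3 of 3 embryos, by 36.5 ± 8.35 genes. Of the 15 libraries, 14 held cells of 1 embryo and 1 held cells of 2 embryos, among them 4 anterior cells. No 2 cells shared a library and barcode.

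The gene taken as the mark of this class, ENSCSAVG00000002442, separated anterior from posterior epidermis but did not single the class out in the embryo. Its normalised level (CPM, counts per 1000000 counts of the sum, scaled by TMM) was 63.4, 22.3 and 20.3 in anterior epidermis of embryos 1, 2 and 3, against 0, 4.50 and 0 in posterior epidermis. The groups did not overlap, and embryo 1 was the highest. The fitted log2 fold change was 3.80 ± 0.64 (SE), with an adjusted p of 3.9e-05 by edgeR's quasi-likelihood test with Benjamini-Hochberg adjustment. On raw sums, 56 UMIs stood in anterior and 4 in posterior epidermis, a ratio of 18.6 with an exact 95% counting interval of 6.87 to 70.6. This interval, like those of other count ratios below, leaves out the spread between cells and between embryos.

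The same gene was far higher in several classes outside the epidermis. It reached 207, 236 and 229 CPM in a-line neural cells of embryos 1, 2 and 3, and its highest mean, 299 CPM, in A8.7/8, a nerve cord class. In all, 10 of the other 15 classes had a higher mean than the 35.4 ± 24.4 CPM of anterior epidermis (SD, n = 3). ENSCSAVG00000002442 was lower in anterior epidermis than in the mean of the non-epidermis classes (log2 fold change -1.32 ± 0.34, adjusted p = 0.0092) and than in a-line neural cells (-2.81 ± 0.38, adjusted p = 2.1e-08, both edgeR quasi-likelihood). The name anterior epidermis is therefore used below as the authors' label, and this gene does not define it.

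Within anterior epidermis, a few cells held most of the UMIs of ENSCSAVG00000002442. It had a UMI in 11 of 19, 6 of 17 and 4 of 20 anterior cells of embryos 1, 2 and 3. The 3 highest cells of each embryo held 62.1%, 78.6% and 92.3% of its UMIs, and in embryo 3 a single cell held 10 of 13. After thinning to 10000 UMIs, 17.9% of 56 anterior cells had a UMI (exact 95% interval 8.91% to 30.4%), against 0 of 66 posterior cells (up to 5.44%). The share was 95.8% of 24 a-line neural cells (78.9% to 99.9%) and 0 of 29 cells of the endoderm class, A7.1/2/5,B7.1/2 (up to 11.9%). These shares pool the cells of 3 embryos and the intervals cover counting error only, so they describe the classes and do not test a difference between them.

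**Figure D1:**
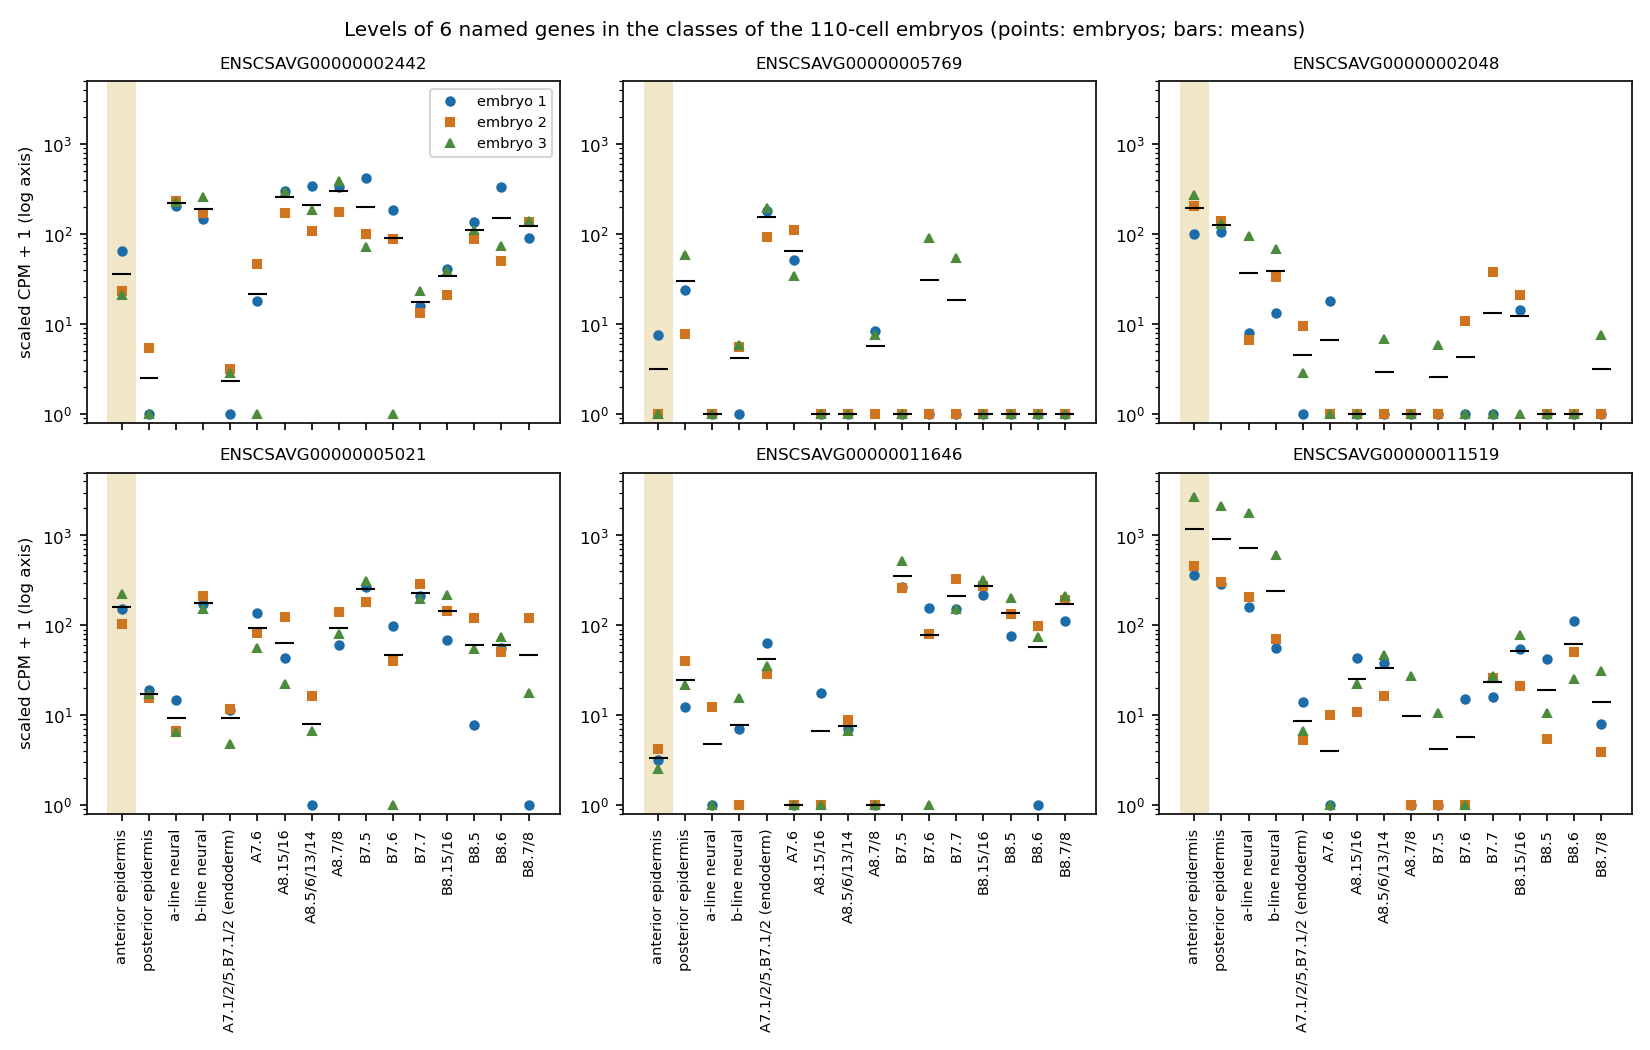
Normalised level (scaled CPM plus 1, log axis) of 6 named genes in each of the 16 classes of the 110-cell embryos, with anterior epidermis leftmost on a shaded band; points are embryos and bars are means. ENSCSAVG00000002442 lies higher in anterior than in posterior epidermis but higher again in 10 other classes, while ENSCSAVG00000002048 and ENSCSAVG00000011519 have their highest means in anterior epidermis.

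Anterior and posterior epidermis differed in few genes. Of 5159 genes tested, 9 were higher in anterior epidermis (0.174% of those tested) and 6 were lower (0.116%) at an adjusted p under 0.05, by edgeR's quasi-likelihood test with the embryo as a block. Anterior lay above posterior epidermis in 3 of 3 embryos for 9 of those 9 genes, and below it in 3 of 3 for 5 of those 6. The median log2 fold change over all tested genes was -0.00, against 2.58 for the genes called higher and -2.23 for those called lower. A fit of the 2 epidermis classes alone called 27 higher and 22 lower, and a fit of the 8 classes with at least 4 cells in every embryo, added after seeing the data, called 14 and 13. Without embryo 3 the counts were 5 and 2. The calls of lower genes were the less steady ones: DESeq2 called 8 higher and 1 lower, and the fit with no replicate block 5 higher and 0 lower.

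The first gene after ENSCSAVG00000002442 by fold change was ENSCSAVG00000005021. It had 153, 102 and 221 CPM in anterior epidermis of embryos 1, 2 and 3, against 18.3, 14.6 and 16.4 CPM in posterior epidermis. Every anterior value was at least several times the posterior value of its embryo, and the posterior values were close together. The log2 fold change was 3.32 ± 0.42 with an adjusted p of 1.8e-08 (edgeR). A UMI of this gene was found in 85.7% of 56 thinned anterior cells (73.8% to 93.6%) and in 9.09% of 66 posterior cells (3.41% to 18.7%), so most anterior cells carried it, unlike ENSCSAVG00000002442. It was no mark of the front of the embryo either, since its highest mean, 251 CPM, was in B7.5, a class of the posterior vegetal lineage, and b-line neural cells held 178 ± 31.7 CPM.

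Both genes with the largest drop were scarce in anterior epidermis. ENSCSAVG00000005769 had 6.56, 0 and 0 CPM in anterior epidermis of embryos 1, 2 and 3, against 22.9, 6.75 and 57.4 CPM in posterior epidermis. Posterior epidermis was higher in each embryo, although its embryo 2 lay only just above anterior embryo 1. The log2 fold change was -3.53 ± 0.82 (adjusted p = 0.018, edgeR), and it rests on 3 anterior and 72 posterior UMIs, a ratio of 0.0554 with an exact 95% counting interval of 0.0112 to 0.168. Of the 72 posterior UMIs, 38 were in 1 cell. Without embryo 3 the log2 fold change was -2.02 and the adjusted p 1. DESeq2 gave -3.64 with an adjusted p of 1, and the fit with no replicate block -3.66 with an adjusted p of 0.514. The highest mean of ENSCSAVG00000005769 was 157 CPM, in the endoderm class.

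ENSCSAVG00000011646 had 2.19, 3.19 and 1.56 CPM in anterior epidermis, against 11.4, 39.4 and 20.5 CPM in posterior epidermis of embryos 1, 2 and 3. The groups did not overlap. The log2 fold change was -3.15 ± 0.66 (adjusted p = 0.0035, edgeR). Without embryo 2 the adjusted p was 0.312 and without embryo 3 it was 0.194, while the log2 fold change stayed at -2.85 and -3.04. With no replicate block the adjusted p was 0.056. The highest mean of ENSCSAVG00000011646 was 349 CPM, in B7.5, so posterior epidermis carried it at a low level too.

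None of the 9 genes higher in anterior than in posterior epidermis had its highest mean in anterior epidermis. All 9 were highest in a class outside the epidermis, among them 4 in A8.7/8 and 2 in a-line neural cells, and 5 of the 9 had a higher mean in a-line neural cells than in anterior epidermis. The 4 and the 5 both take in ENSCSAVG00000002442, ENSCSAVG00000002459 and ENSCSAVG00000002465, which are close in identifier number. These 3 may not be separate measures, as described below. Of the 6 genes that were lower, 3 were highest in posterior epidermis and 3 outside the epidermis. The log2 fold changes against posterior epidermis ran from 0.83 to 3.80 for the 9 genes and from -3.53 to -1.45 for the 6.

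**Figure D2:**
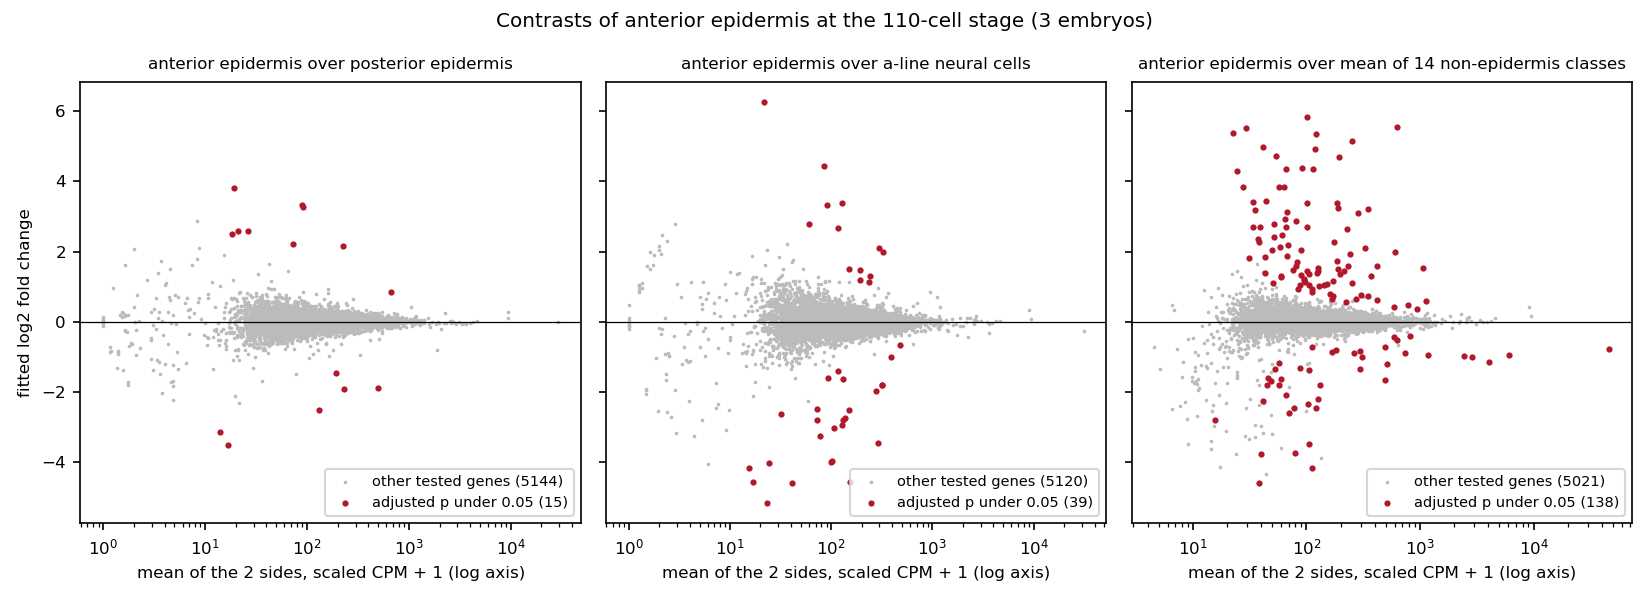
Fitted log2 fold change of every tested gene (vertical axis) against its mean level in scaled CPM plus 1 (horizontal, log axis) for anterior epidermis over posterior epidermis, over a-line neural cells and over the mean of the 14 non-epidermis classes. Genes with an adjusted p under 0.05 are red: 15, 39 and 138 genes in the 3 panels.

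Against a-line neural cells, the neural class of the same animal quadrant, 13 genes were higher in anterior epidermis (0.252% of 5159 tested) and 26 were lower (0.504%), by the same edgeR test. The 3 embryos were separated for 13 of the 13 and 25 of the 26. The median log2 fold change was 2.11 for the genes called higher and -2.80 for those called lower, against 0.00 over all tested genes. Without embryo 2 the counts were 6 and 19. With anterior epidermis and a-line neural cells alone in the fit, they were 29 and 30.

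ENSCSAVG00000005391 led the genes higher in anterior epidermis. It had 6.56, 52.7 and 65.5 CPM in anterior epidermis of embryos 1, 2 and 3, and 0 in a-line neural cells of all 3 embryos (adjusted p = 0.0021, edgeR). There were 78 anterior UMIs and none in neural cells. With neural cells set at a floor of 3 counts over the group, the level was 10.2-fold higher in anterior epidermis. The exact 95% counting interval of the ratio starts lower, at 8.13. Embryo 1 was low. The call was lost without embryo 2 (log2 fold change 5.92, adjusted p = 0.339), with no replicate block (6.27, adjusted p = 0.133) and with DESeq2 (5.44, adjusted p = 1). Posterior epidermis held 27.5, 69.8 and 80.0 CPM, more than anterior epidermis in each embryo but with a log2 fold change of only -0.64 ± 0.52 (adjusted p = 1), so ENSCSAVG00000005391 was a transcript of both epidermis classes.

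ENSCSAVG00000005021, described above against posterior epidermis, was the other one. It had 13.8, 5.69 and 5.58 CPM in a-line neural cells, below each anterior value, with a log2 fold change of 4.45 ± 0.63 (adjusted p = 1.1e-07, edgeR). No thinned neural cell of 24 had a UMI (up to 14.2%).

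Of the genes lower than in neural cells, ENSCSAVG00000000423 had 2.19, 0 and 0 CPM in anterior epidermis, against 27.6, 19.9 and 83.7 CPM in a-line neural cells of embryos 1, 2 and 3. The log2 fold change was -5.18 ± 1.00 (adjusted p = 0.00029, edgeR). It rests on 1 anterior UMI against 26, a ratio of 0.0151 (exact 95% counting interval 0.000369 to 0.0922), and the call was lost without embryo 3 (log2 fold change -3.93, adjusted p = 0.306) and with DESeq2 (-5.88, adjusted p = 0.174). ENSCSAVG00000007523 had 0, 0 and 7.80 CPM in anterior epidermis, against 82.7, 54.0 and 94.9 CPM in neural cells, with a log2 fold change of -4.59 ± 0.78 (adjusted p = 1.7e-05, edgeR). The groups did not overlap for either gene, and posterior epidermis was as poor in both, at 0.375 and 0.750 CPM on average.

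ENSCSAVG00000002442 had neighbours in identifier number with a like pattern. The 2 genes whose levels over the 48 sums of embryo and class were most like it were ENSCSAVG00000002465 (Pearson r = 0.83 on log2 of CPM plus 10) and ENSCSAVG00000002454 (r = 0.83). These points share embryos and libraries. Among the 11 tested genes with identifiers from ENSCSAVG00000002442 to 23 above it, itself included, 5 (the gene and 4 neighbours) were called lower than in a-line neural cells, where 0.504% of all tested genes were. The gene and 2 of these neighbours were also called higher than in posterior epidermis, where 0.174% of all tested genes were. The span was set after these values were seen. Their means ran from 13.1 to 35.4 CPM in anterior epidermis, against 141 to 237 CPM in a-line neural cells, and their pairwise r from 0.70 to 0.87. Whether they are near-identical copies that share reads could not be checked with the files, so the split of counts among them is uncertain.

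The anterior cells richest in ENSCSAVG00000002442 also held its 4 neighbours. In the 8 anterior cells with at least 3 of its UMIs, the other 4 genes summed to a median of 7.5 UMIs. A UMI of any of the 4 was in 8 of 8 cells, and the lowest sum was 1 UMI. The median was 0 UMIs in the 48 other anterior cells, 23 of which had one, and 16.5 in a-line neural cells. The 8 cells came from 6 libraries and were deeper, with a median of 41903 UMIs against 27428 in the other 48. The part of depth in this was not tested.

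Against the mean of the 14 non-epidermis classes, 95 genes were higher in anterior epidermis (1.84% of 5159 tested) and 43 were lower (0.833%), by the same edgeR test. The embryos were separated for 92 of the 95 and 43 of the 43. The median log2 fold change was 1.83 for the genes called higher and -1.36 for those called lower, against 0.02 over all tested genes. The split depends on how the other side is taken: against 1 sum of all non-epidermis cells per embryo, 121 genes were higher and 150 lower. The mean over classes is a mean of logarithms, and 206 of the tested genes had a class with no count in any of the 3 embryos. Of these, 37 were called higher and 0 lower, although 106 lay below the mean CPM of those classes in all 3 embryos.

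ENSCSAVG00000002048 stood first among the genes higher than outside the epidermis. It had 98.5, 207 and 275 CPM in anterior epidermis of embryos 1, 2 and 3, against 3.55, 8.1701 and 13.0 CPM in the mean of the non-epidermis classes. The groups were far apart. It had no count in 4 of the 14 classes, so its fitted log2 fold change of 5.83 (adjusted p = 1.7e-24, edgeR) depends on the small count that the fit adds. Against 1 sum of non-epidermis cells the log2 fold change was 4.53 ± 0.23 (adjusted p = 7.4e-25). Posterior epidermis was next with 105, 141 and 129 CPM, and overlapped with anterior epidermis.

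ENSCSAVG00000011519 had 359, 461 and 2704 CPM in anterior epidermis of embryos 1, 2 and 3, against 39.1, 29.8 and 191 CPM in the mean of the non-epidermis classes. Embryo 3 stood several times above the other embryos on both sides. It did so too in posterior epidermis, with 291, 304 and 2140 CPM, and in a-line neural cells, with 159, 208 and 1797 CPM. The within-embryo contrast gave a log2 fold change of 5.56 ± 0.19 (adjusted p = 4.3e-46, edgeR), and 3.66 ± 0.10 against 1 sum of non-epidermis cells.

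The 2 genes with the largest drop were near absent from the epidermis as a whole. ENSCSAVG00000002183 had 0, 1.60 and 1.56 CPM in anterior epidermis, against 45.8, 69.1 and 103 CPM outside the epidermis, with a log2 fold change of -4.61 ± 0.73 (adjusted p = 7.1e-07, edgeR). Its 2 anterior UMIs stood against 467, a ratio of 0.0177 (exact 95% counting interval 0.00214 to 0.0643). Against 1 sum of non-epidermis cells its log2 fold change was -5.73 ± 0.54 (adjusted p = 2.2e-13, edgeR). Without embryo 2 the log2 fold change over the class mean was -4.31 with an adjusted p of 1. B7.6 and A8.15/16 then held no count of this gene. ENSCSAVG00000009819 had 10.9, 1.60 and 1.56 CPM in anterior epidermis, against 174, 271 and 203 CPM, with a log2 fold change of -4.16 ± 0.72 (adjusted p = 6.4e-06, edgeR). Without embryo 1 its log2 fold change was -5.07 and without embryo 2 it was -3.47, with an adjusted p of 1 in both. A7.6 and a-line neural cells, respectively, then held no count of it. With a class emptied, these fits of both genes cannot show whether the drop depends on 1 embryo. Against 1 sum of non-epidermis cells the log2 fold change of ENSCSAVG00000009819 was -5.41 ± 0.33 (adjusted p = 4.2e-21, edgeR). Posterior epidermis held 3.72 and 0.717 CPM of these genes on average.

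Most genes that set anterior epidermis apart from the rest of the embryo were shared with posterior epidermis. Of the 95 higher genes, 34 had their highest mean in anterior epidermis, 36 in posterior epidermis, 8 in a-line and 4 in b-line neural cells. In 60 of the 95, the anterior mean was above the mean of each non-epidermis class. Their median log2 fold change of anterior over posterior epidermis was 0.06, and 85 of the 95 lay within 1 log2 unit. Beyond that unit, 7 were higher in anterior epidermis and 3 in posterior epidermis. Of the 43 lower genes, 39 lay within 1 log2 unit of posterior epidermis by the same ratio, and 43 of 43 had their highest mean outside the epidermis.

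Among the 43 lower genes, 16 came from 42 genes that neighbour the stage's most abundant gene in identifier number (at most 30 away). These 42 genes took 5.17%, 2.63% and 3.88% of the UMIs of anterior epidermis in embryos 1, 2 and 3, 5.97%, 3.03% and 3.33% in posterior epidermis, and 26.4%, 16.1% and 19.2% in the muscle class B8.7/8. With them left out of the counts, 94 genes were higher and 26 lower.

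Few genes had anterior epidermis as their clear peak. Of 5159 tested genes, 3 (0.0582%) were higher there than in each of the other 15 classes in all 3 embryos, against 13 for posterior epidermis, 4 for a-line neural cells and between 0 (B8.5) and 31 (B8.15/16) for the other classes. With genes that the count filter left untested included, anterior epidermis had 13, posterior epidermis 19 and a-line neural cells 9. The other classes then had between 1 (B8.5) and 42 (B8.15/16), so the order of classes depends on the filter. Classes also differ in size. Among tested genes, B8.6 and B7.7, with 1 or 2 cells per embryo, had 17 and 15, while B8.5, with 2, had 0. The part of class size in these counts was not tested. ENSCSAVG00000007605 led the 3 tested genes, with 85.3, 95.8 and 125 CPM in anterior epidermis of embryos 1, 2 and 3, against 55.2, 73.9 and 61.4 CPM in a-line neural cells, the next class. Posterior epidermis held 59.5, 48.4 and 80.0 CPM, and the log2 fold change of 0.71 ± 0.44 over it did not pass the test (adjusted p = 1, edgeR). ENSCSAVG00000005525 had 151, 79.8 and 114 CPM in anterior epidermis, against 145, 37.0 and 72.6 CPM in a-line neural cells. The third was ENSCSAVG00000011519. The means of these 3 genes were only 1.61, 1.36 and 1.29 times those of the next class, and these genes were chosen by their order, so the ratios are a description.

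Over whole profiles, anterior epidermis was most like itself in other embryos, then like posterior epidermis, then like the neural classes of the animal side. Over the 300 most variable genes, the mean Pearson r between sums of different embryos was 0.93 for anterior with anterior epidermis, 0.90 with posterior epidermis, 0.81 with a-line and 0.78 with b-line neural cells (6 embryo pairs each). All vegetal classes were at or below 0.64 on average, with B7.5 lowest at 0.32. The genes are not independent replicates and the classes differ in depth, so these values only describe the order.

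Single anterior cells were sorted with genes chosen in the other 2 embryos. The score of a cell was its mean log2 of CPM plus 10 over the 25 genes highest in anterior against posterior epidermis minus that over the 25 lowest. In embryos 1, 2 and 3, the median anterior cell scored 1.03, 0.14 and 0.02, against -0.36, -1.13 and -1.36 for the median posterior cell. An anterior cell scored higher in 93.4% to 97.9% of the pairs within an embryo. Of 56 anterior cells, 31 scored above every posterior cell of their embryo and 0 below the posterior median. The ranges met, while no anterior cell fell in the lower part of the posterior range. The highest posterior cell lay above the anterior median in embryo 1 (1.027 against 1.026) and embryo 2 (0.32 against 0.14). In embryo 3 it lay below (-0.24 against 0.02). With 10 genes per side, 48 of 56 were above every posterior cell.

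Against a-line neural cells the same score separated every cell. The median anterior cell scored 1.69, 1.67 and 2.18 in embryos 1, 2 and 3, against -1.32, -1.38 and -1.200 for neural cells, and 56 of 56 anterior cells were above all neural cells of their embryo.

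**Figure D3:**
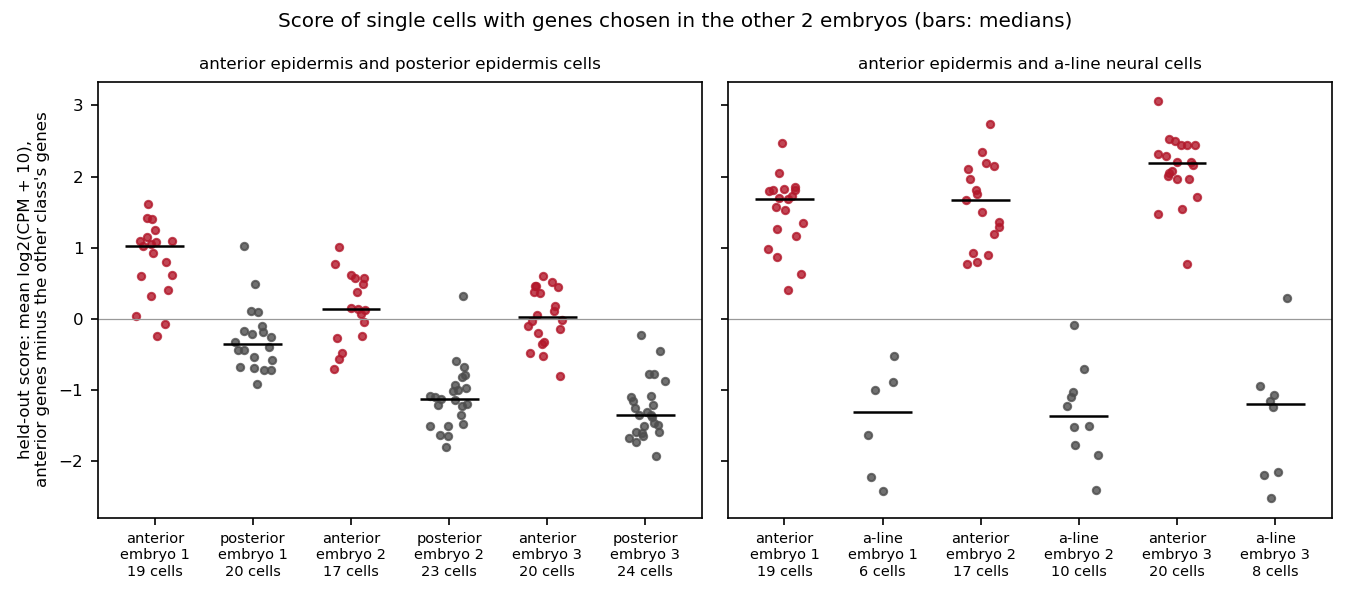
Score of single cells (vertical axis, mean log2 of CPM plus 10 over anterior genes minus that over the other class's genes) with 25 genes per side chosen in the other 2 embryos, anterior cells in red left of posterior or a-line neural cells of the same embryo; bars are medians. Of 56 anterior cells, 31 lie above every posterior cell of their embryo and 56 above every a-line neural cell.

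Between epidermis at 64 cells and anterior epidermis at 110 cells, 2 of 6032 tested genes were higher at 110 cells (0.0332%) and 0 were lower (0%) by edgeR's quasi-likelihood test, with 255 genes at an unadjusted p under 0.05. DESeq2 called 15 higher and 4 lower. Neither stage shared embryos or libraries with the other, so stage and library cannot be told apart. The 64-cell label does not divide epidermis into anterior and posterior, so a part was set against a whole. For a gene that differs between the epidermis classes, stage and position cannot be told apart here. Leaving out 1 embryo left between 0 and 2 genes: 0 without embryo 3 of the 110-cell stage, and 0 without embryo 2 or embryo 3 of the 64-cell stage, 1 without embryo 2 of the 110-cell stage or embryo 1 of the 64-cell stage.

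Both genes have been met above. Scaled over these 6 sums, ENSCSAVG00000005021 had 155, 104 and 226 CPM in anterior epidermis at 110 cells, against 3.67, 13.0 and 10.97 CPM in epidermis at 64 cells, a log2 fold change of 4.16 ± 0.47 (adjusted p = 0.018, edgeR). ENSCSAVG00000002048 had 99.6, 212 and 280 CPM at 110 cells, against 15.6, 21.2 and 13.7 CPM at 64 cells, a log2 fold change of 3.54 ± 0.41 (adjusted p = 0.018). The stages did not overlap for either. At 110 cells posterior epidermis held 16.4 ± 1.39 CPM of ENSCSAVG00000005021 and 125.5 ± 21.4 CPM of ENSCSAVG00000002048 without scaling, so that only the second was high in both epidermis classes. ENSCSAVG00000002442 had 64.2, 22.8 and 20.7 CPM at 110 cells, against 1.84, 0 and 8.23 CPM at 64 cells, a log2 fold change of 3.43 ± 0.87 that did not pass the test (adjusted p = 0.727).

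The 9 genes higher and the 6 genes lower in anterior than in posterior epidermis were then followed in cells that took no part in choosing them. Each cell was given its mean log2 of CPM plus 10 over the 9 genes minus that over the 6. Among the 9 are 3 genes close in identifier number, ENSCSAVG00000002442 included, which may not be separate measures. By construction the difference was high in anterior epidermis at 110 cells, with medians of 1.23, 0.98 and 0.87, and low in posterior epidermis, with medians of -1.55, -2.02 and -2.31. Within anterior epidermis 16 of 19, 12 of 17 and 17 of 20 cells were above 0, against 1 of 20, 1 of 23 and 0 of 24 posterior cells.

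In epidermis of the 64-cell stage the same difference spread widely within each embryo. It ran from -1.85 to 0.58 in embryo 1, from -3.48 to 1.195 in embryo 2 and from -2.62 to 2.58 in embryo 3, and 6 of 25, 6 of 22 and 8 of 19 cells were above 0. Across the cells of an embryo, the means over the 9 and over the 6 genes had a Pearson r of -0.23 (25 cells), -0.72 (22 cells) and -0.79 (19 cells). In embryos 2 and 3, cells with much of one list therefore tended to have little of the other, and in embryo 1 this was weak. Each cell has its own depth, which both lists share.

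In animal cells of U0126 embryos the difference ran from -2.95 to 0.96 and from -3.22 to 0.09 in the 2 embryos, with r = -0.79 (33 cells) and -0.56 (30 cells). In untreated embryos of the 32-cell stage its SD was 0.54 and 0.17 in embryos 1 and 2, with r = -0.43 (20 cells) and 0.24 (16 cells). These groups are reads rather than UMIs, and their cells hold more counts. Their medians per embryo ran from 108965 to 247165 reads per cell, against 34843 to 36720.5 UMIs in 64-cell epidermis. Levels, spreads and r are therefore not compared with those of the 64- and 110-cell cells.

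**Figure D4:**
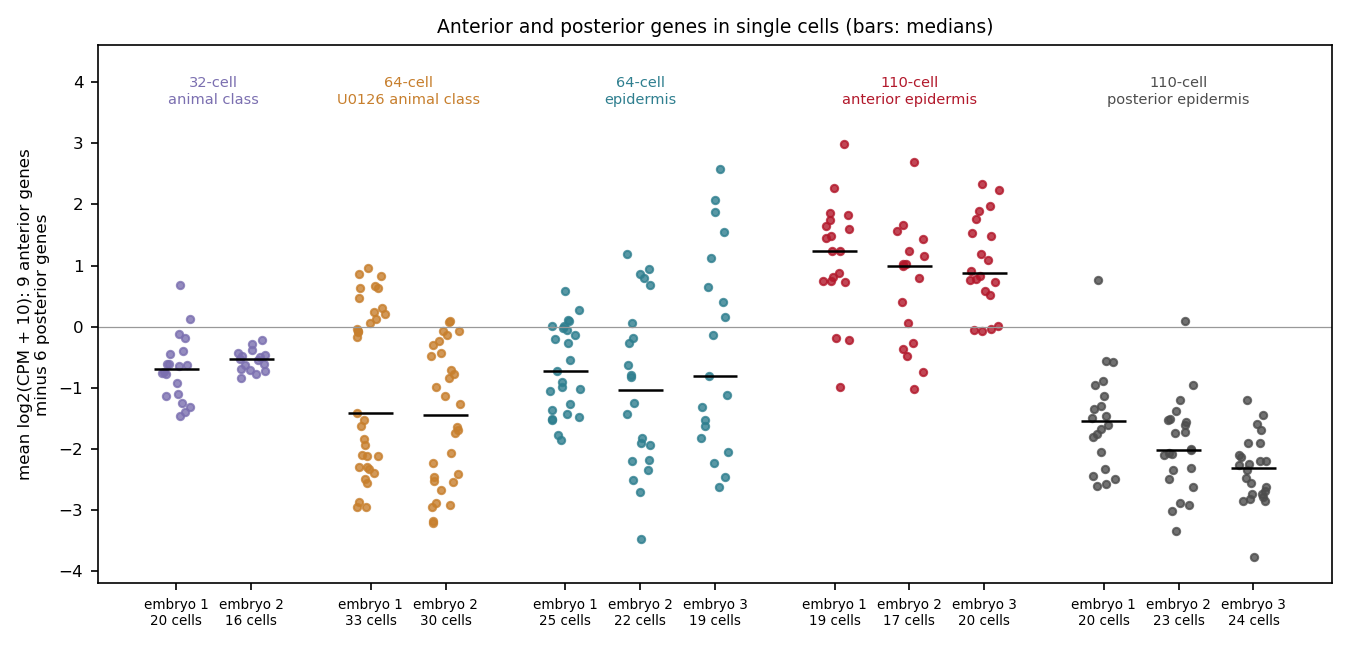
Difference between the mean log2 of CPM plus 10 over the 9 genes higher and over the 6 genes lower in anterior than in posterior epidermis (vertical axis), for single cells by embryo; bars are medians. The 110-cell classes chose the genes; in the 64-cell epidermis of embryo 3, values run from -2.62 to 2.58.

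Genes that mark other classes at 64 cells were measured in anterior epidermis at 110 cells as summed CPM of 20 genes per class (19 for B7.5). Most of these lists share genes with each other, so they are not separate measures. The list of A7.4/8, the nerve cord class of the anterior vegetal lineage, summed to 1702 to 1839 CPM in the anterior epidermis of 3 embryos, against 1058 to 1225 CPM in posterior epidermis. Of its 18 tested genes, 6 were among those called higher in anterior than in posterior epidermis and 0 among those called lower, against 0.174% and 0.116% of all tested genes, and its median log2 fold change was 1.48, against -0.00 over all genes. Of the 20 genes 18 were in another list as well. In A8.7/8 the list reached 3237 CPM and in a-line neural cells 1915 to 2204 CPM.

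The sums over the lists of the other anterior vegetal classes also lay higher in anterior epidermis without overlap, at 453 to 560 CPM against 284 to 286 CPM in posterior epidermis for A7.1/2/5, at 636 to 728 against 382 to 519 CPM for A7.3/7, and at 486 to 715 against 408 to 457 CPM for A7.6. Their median log2 fold changes were small, at 0.25, 0.36 and 0.15. Called higher and lower were 2 and 1 genes of A7.1/2/5, 3 and 0 of A7.3/7, and 1 and 1 of A7.6, out of 19, 19 and 18 tested. Each stood at 2289 to 4656 CPM in the class where it was highest. The sum over the list of B7.4 was higher as well, at 300.02 to 395 CPM against 141 to 284 CPM, but its median log2 fold change was -0.16, with 1 gene called higher and 1 lower of 20 tested. The sum over the list of B7.1/2, posterior endoderm, was lower, at 121 to 230 CPM in anterior epidermis against 380 to 467 CPM in posterior epidermis, and 3 of its 19 tested genes were among those called lower (0.116% of all tested genes), while its median log2 fold change was -0.06. In the other lists, 3 genes were called higher and 1 lower for B7.5, 0 and 2 for B7.3, and 1 and 2 for epidermis, with at most 1 in either direction for the rest. The sums of the remaining 8 lists overlapped between the epidermis classes, those of epidermis (2951 to 6271 against 3526 to 6387 CPM) and of a-line neural cells a7.9/10/13 (2792 to 5952 against 2841 to 5347 CPM) among them. Whether RNA of other cells has a part in these sums was not tested.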

How the data were processed

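Whole-number counts per gene and cell were used as deposited by the authors. In the 110-, 64- and 4-cell columns each cell's total equalled the UMI number of the deposited cell table, and in the 32-cell and U0126 columns its read number. The other 74 cells were not used. Tools named in the submitters' processing notes are CASAVA 1.8, DESeq2 and Seurat, with no role. Aligner, annotation and build: not given in the sources used here.

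Counts were summed per embryo and class, which gave 48 sums at 110 cells. These were fitted together with edgeR 4.0.16 in R 4.3.3 (TMM, filterByExpr, quasi-likelihood, embryo as a block), with Benjamini-Hochberg adjustment at 0.05. The block stands for cells of the same embryo: deviations of anterior and posterior epidermis of one embryo had r = 0.70, 0.60 and 0.47. The standard error is the absolute log2 fold change over the square root of F. The stage comparison had 6 sums and no block. DESeq2 1.42.0 was an alternative. The fit was also run on simulated counts, with equal gene means in all classes except for genes changed in anterior epidermis. These counts had a common spread and no embryo effect, so they do not bear on empty classes or on the block. Ratios of counts have exact binomial intervals, which pool the UMIs of all cells and embryos as independent counts. They cover counting error only and are too narrow where a few cells hold most of the UMIs. Description used Python 3.11.15, numpy 2.4.6, pandas 2.3.3, scipy 1.17.1 and matplotlib 3.10.9.

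Genes were named by a rule: adjusted p under 0.05, separated in all 3 embryos, then the 2 largest fold changes per direction and comparison, with the marker, the 2 strongest peaks and the 2 genes most like the marker. Class, marker, lists and tests were chosen with earlier results of these data known. The marker-rich cells, the genes near the marker and the genes with an empty class were looked at after their values were seen.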

Additional observations from a re-analysis of the deposited data

How the results depend on the processing

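Counts of genes are given as all genes called, in either direction. Posterior epidermis (15 genes): 9 with DESeq2, 27 with no filter on low counts, 49 with the 2 classes alone, 27 with classes of at least 4 cells, 7 to 16 when 1 embryo was left out. Mean of the non-epidermis classes (138): 213 with no filter, 88 with a minimum count of 30, 271 against 1 sum, 98 to 119 when 1 embryo was left out. A-line neural cells (39): 59 with the 2 classes alone, 25 to 39 when 1 embryo was left out. Epidermis at 64 cells (2): 19 with DESeq2, 21 with no filter, 7 without the run of neighbouring identifiers, 0 to 2 when 1 embryo was left out. With no replicate block, the fits called 5, 82 and 23 genes against posterior epidermis, the non-epidermis mean and neural cells. The cause was not tested. Pairs above posterior cells averaged 96.1%, and 99.05% with 10 genes per side. RLE scaling, a log2 threshold of 1 and leaving out the library with cells of 2 embryos kept each count within 1.5 times. Where a named gene had an adjusted p, it kept its sign in 155 of 155 alternatives, which refit the same counts. Naming had required separation in all 3 embryos and a large fold change, so the kept sign was largely built in. The call was lost in 22 of the 155 alternatives, most often for ENSCSAVG00000002048 against 64 cells (5). Alternatives that left the gene untested or without an adjusted p are not counted. ENSCSAVG00000005391 against neural cells kept the call in 5, lost it in 3 and had no value in the rest.

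Limits: 3 embryos per stage, small classes of 1 or 2 cells in the shared fit, and classes of unknown derivation. Genes with under about 10 UMIs in a class carry wide counting intervals.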
